A study of Mus musculus with 12 samples.

Results

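Gad1, Gad2, Slc32a1, Pvalb, Calb1, Calb2, Reln and Htr3a, which mark GABA-releasing neurons, were followed here through the basal forebrain and cortex of mice without presenilins in cholinergic neurons. They were taken as every probe that carries one of these 8 names on the array. That gave 23 probes of the 56568 analysed and 8 of 37021 gene names. The double knockout mice (DKO, also labelled cDKO) had the genotype ChatCre-PS1flox/flox-PS2-/-, in which Cre is placed under the control of the choline acetyltransferase gene. The controls (Con) had the genotype Cre--PS1flox/flox-PS2+/-, so both groups carry the floxed PS1 alleles and the controls lack 1 functional copy of PS2. There were 3 mice of each genotype, all 2 months old and labelled male, and each mouse gave a piece of basal forebrain and a piece of cortex, 12 arrays in all. Levels are log2 intensities minus the 75th percentile of the array, so that a level of 0 lies at that percentile and a step of 1 is a doubling.

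GABA is the main fast inhibitory transmitter of the adult forebrain. It is made from glutamate by the glutamate decarboxylases GAD67 (Gad1) and GAD65 (Gad2), and the transporter VGAT (Slc32a1) loads it into synaptic vesicles. In cortex these genes mark interneurons, which fall into classes that include fast-spiking parvalbumin cells (Pvalb), somatostatin cells, and cells with the serotonin-gated channel 5-HT3A (Htr3a), among them many that make calretinin (Calb2), reelin (Reln) or the peptide VIP. Calbindin (Calb1), like parvalbumin and calretinin, is a calcium-binding protein, and is found in some interneurons and also in upper-layer pyramidal neurons and striatal projection neurons. In the basal forebrain and striatum, GABA is the transmitter of many long-range projection neurons as well, so the 3 GABA genes there are not interneuron markers alone. In whole tissue, fewer cells of a type and less RNA per cell cannot be told apart.

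The first 30 of the 60 bases of the brightest probe of each gene are printed because the values below rest on these probes. Probes are numbered by brightness within their gene, and Reln probe 3 is shown as well because it gave the opposite result between regions. The sequences and the positions, in mouse build mm9, are those of the deposited scanner files. No base is marked in capitals.
Gad1, chr2:70439699-70439758, plus strand: gagtgcccttaacataatgatttgaacata
Gad2, chr2:22549095-22549154, plus strand: agtaacaggacaaagaagcaaaaacatcaa
Slc32a1, chr2:158441324-158441383, plus strand: aaactcatcttgtgcaatgtatccggtcgt
Pvalb, chr15:78021951-78022010, minus strand: agtttgtttgtgttattttttactccccca
Calb1, chr4:15832543-15832602, plus strand: tatgtctgattctatgcctatatttccaag
Calb2, chr8:112667073-112669583, minus strand: tcctgaaggatctgtatgagaagaacaaga
Reln, probe 1, chr5:21390477-21390536, minus strand: ctgtggccgttttactgacagtaactgcca
Reln, probe 3, chr5:21730695-21730754, minus strand: caaaacagggtagaggagatcgttgatttc
Htr3a, chr9:48707773-48707832, minus strand: ctggtcactctctggtccatttggcattat
The Calb2 probe of 60 bases is placed over 2511 bases of the genome, which spans an intron. Reln probe 3 lies 340.2 kb from the brightest one. Exon and UTR boundaries were not worked out for the other probes.

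The arrays carried their labels with 1 exception. Psen2 lay between -1.86 and -1.25 on the 6 DKO arrays and between 0.25 and 0.50 on the 6 Con arrays. Of the DKO mice labelled male, mice 1 and 3 went against that label in both regions: Xist lay between -2.32 and -1.53 in their samples, against -8.49 and -8.28 in DKO mouse 2, and Ddx3y lay between -8.99 and -8.47, against -1.55 and -1.36 in DKO mouse 2. In Con mice Xist was at most -6.48 and Ddx3y at least -1.47. No Con mouse went against the male label, so sex and genotype cannot be fully told apart in the genotype comparisons. The genotype differences of the 8 genes within each region, and a few other values, are therefore also given without DKO mice 1 and 3. That leaves 1 DKO mouse. The values of the interaction, of single probes and of the other lists are given with all mice only. Chat lay between -0.30 and 1.00 in basal forebrain and between -2.35 and -1.34 in cortex. The 6 basal forebrain arrays and DKO cortex arrays 1 and 2 were on slide 1, and DKO cortex array 3 and the 3 Con cortex arrays were on slide 2. In Con mice, region and slide cannot be told apart. A fit with the slide as a block takes its slide term from the DKO cortex arrays alone, array 3 against arrays 1 and 2. It applies that term to the Con mice as well, so it is no check of the slide separate from DKO mouse 3.

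In basal forebrain the GABA genes Gad1, Gad2 and Slc32a1 and the calretinin gene Calb2 were higher than in cortex in both genotypes, and Pvalb, Calb1 and Htr3a were lower in both. Reln by its brightest probe was lower in basal forebrain in DKO mice and did not pass the test in Con mice. No gene passed the test between genotypes. All 8 brightest probes were well above background on all 12 arrays.

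**Figure D1:**
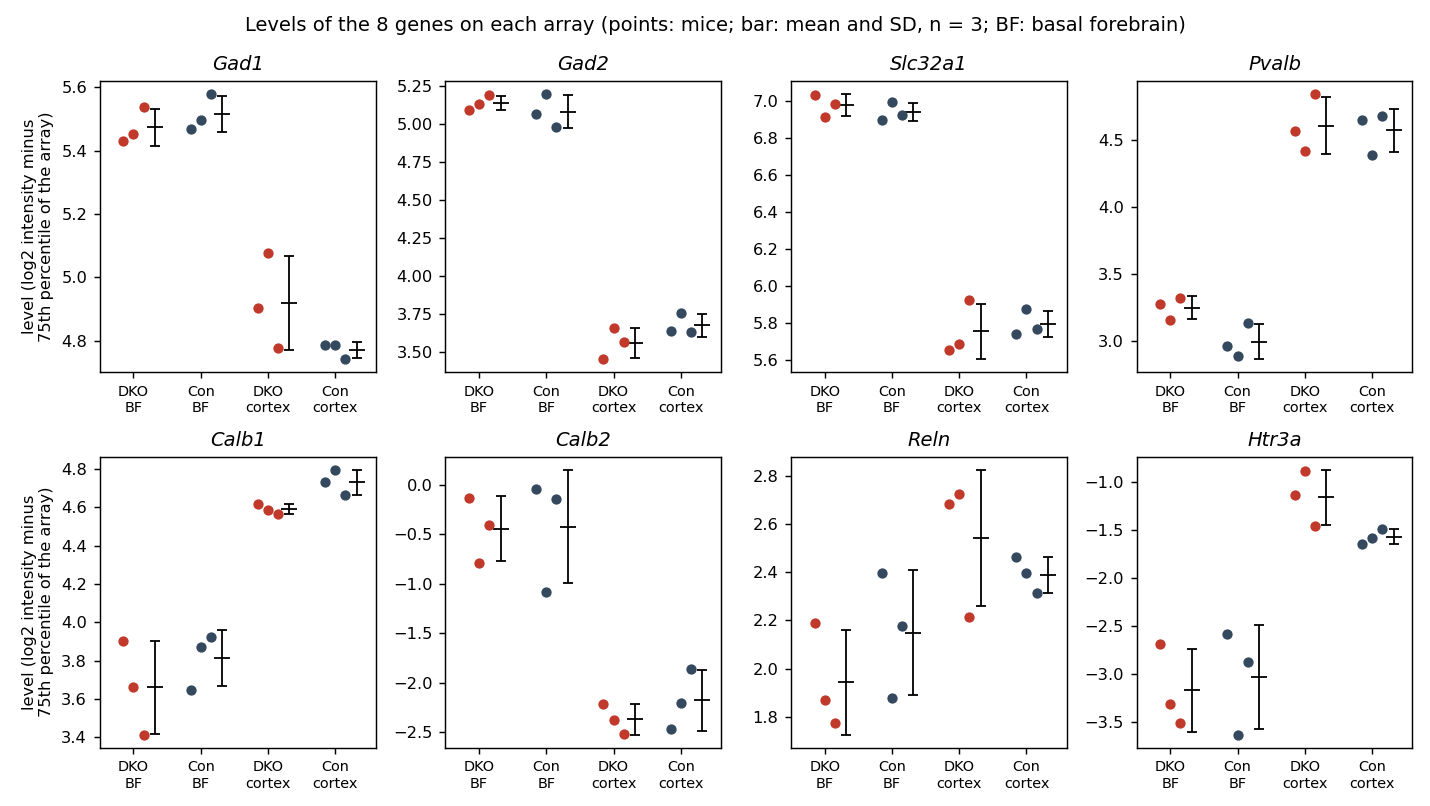
Levels of the 8 genes on each of the 12 arrays (vertical axis, log2 intensity minus the 75th percentile of the array, a separate scale for each gene). Points are mice, bars are the mean and SD of 3 mice, and from left to right stand DKO and Con basal forebrain, then DKO and Con cortex. Gad2 and Slc32a1 split by region with DKO and Con points intermixed, and Pvalb splits the other way.

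The region difference was tested within each genotype with limma, in 1 fit of all 12 arrays. In DKO mice 8 of 8 genes passed at an adjusted p under 0.05, 4 higher and 4 lower in basal forebrain. Among all 26764 genes tested, 38.2% passed in DKO mice, 18.4% higher and 19.9% lower. In Con mice 7 of 8 genes passed, 4 higher and 3 lower, where 48.5% of all genes passed, 18.4% higher and 30.1% lower. The median difference of the 8 genes was -0.02 in DKO mice and 0.25 in Con mice, beside -0.04 and -0.09 over all genes in the same order of genotypes. So many genes differ between these 2 pieces of tissue that passing the test does not set the 8 genes apart. Their sizes and directions are described gene by gene below.

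Both decarboxylase genes were higher in basal forebrain. Gad2 had levels of 5.09, 5.13 and 5.19 in DKO basal forebrain, against 3.45, 3.65 and 3.56 in DKO cortex. In Con mice Gad2 had levels of 5.06, 5.20 and 4.98 in basal forebrain, against 3.63, 3.76 and 3.63 in cortex. Every basal forebrain array was above every cortex array, and the 2 genotypes overlapped in both regions. The difference was 1.58 ± 0.07 (SE, adjusted p = 4.8e-08), or 2.99-fold, in DKO mice. In Con mice it was 1.41 ± 0.07 (adjusted p = 1.5e-07), or 2.65-fold. Of the 8 genes, Gad2 had the smallest p in both genotypes, and it stood at place 41 of 26764 in DKO mice and at place 52 in Con mice.

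Gad1 had levels of 5.43, 5.45 and 5.54 in DKO basal forebrain, against 4.90, 5.08 and 4.78 in DKO cortex. In Con mice its levels were 5.47, 5.50 and 5.58 in basal forebrain, against 4.79, 4.79 and 4.74 in cortex. The regions were again apart in both genotypes. The difference was 0.55 ± 0.08 (SE, adjusted p = 0.00014), or 1.47-fold, in DKO mice, and 0.74 ± 0.08 (adjusted p = 1.6e-05), or 1.67-fold, in Con mice. The other probes of both genes went the same way with other sizes. Gad1 probes 2 and 3 gave 1.21 and 2.22 in DKO mice and 1.35 and 2.91 in Con mice. Gad2 probes 2 and 3 gave 2.00 and 3.87 in DKO mice and 1.79 and 3.28 in Con mice. All of these passed among all probes tested, so the direction was shared by the probes of each gene and the size was not. Gad1 probe 3 was dim, and on Con cortex array 3, at -6.41, it was not well above background. Gad1 probes 2 and 3 lie 39.8 and 16.6 kb from the brightest one. Gad2 probes 2 and 3 lie 68.6 and 11 kb from the brightest one.

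Slc32a1, the vesicular transporter, has 1 probe. Its levels were 7.03, 6.91 and 6.98 in DKO basal forebrain, against 5.65, 5.69 and 5.93 in DKO cortex. In Con mice they were 6.90, 7.0 and 6.92 in basal forebrain, against 5.74, 5.88 and 5.77 in cortex. The regions were more than 1 log2 unit apart in every mouse, with differences of 1.38, 1.22 and 1.05 in DKO mice and of 1.16, 1.12 and 1.16 in Con mice. The fitted difference was 1.22 ± 0.08 (SE, adjusted p = 5.0e-07), or 2.33-fold, in DKO mice and 1.14 ± 0.08 (adjusted p = 9.4e-07), or 2.21-fold, in Con mice.

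A further list of 8 genes holds transporters and enzymes that clear, break down or supply GABA and its precursors, and Gphn, the scaffold gephyrin of inhibitory synapses. Of these, 5 were higher and 0 lower in DKO mice, and 6 were higher and 1 lower in Con mice, with median differences of 0.43 and 0.40, where 18.4% of all genes were higher in each genotype. The glial transporter GAT3 (Slc6a11) was higher by 1.55 ± 0.14 in DKO mice and by 1.14 ± 0.14 in Con mice. GABA transaminase (Abat) was higher by 0.76 ± 0.08 in DKO mice and by 0.67 ± 0.08 in Con mice, and succinate semialdehyde dehydrogenase (Aldh5a1) by 0.50 ± 0.06 in DKO mice and by 0.51 ± 0.06 in Con mice. The transporter Slc6a13 also passed in both genotypes, at 1.21 in DKO mice and at 1.39 in Con mice. The gene lower in Con mice was Glul, glutamine synthetase, at -0.18 ± 0.07 (adjusted p = 0.047). Its difference in DKO mice was -0.05 ± 0.07 and did not pass.

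The pieces of basal forebrain also held RNA of striatal projection neurons, which use GABA. The share of all genes higher in basal forebrain was 18.4% in each genotype. Of 12 medium spiny neuron genes, 12 were higher in basal forebrain than in cortex in DKO mice, and 12 in Con mice. Their median differences were 1.80 and 1.68. Their mean level ran over 3.86 to 4.08 on DKO basal forebrain arrays, against 1.74 to 2.31 on DKO cortex arrays, and over 3.67 to 4.32 on Con basal forebrain arrays, against 1.92 to 2.42 on Con cortex arrays. The part of these cells in the higher levels of Gad1, Gad2 and Slc32a1 was not tested. Of 12 genes of excitatory cortical neurons, 10 were lower in basal forebrain in DKO mice and 9 in Con mice. Lower among all genes were 19.9% in DKO mice and 30.1% in Con mice. In each genotype 1 gene of the list was higher, Bcl11b, at 1.03 in DKO mice and 1.33 in Con mice. Striatal projection neurons also make Bcl11b.

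**Figure D2:**
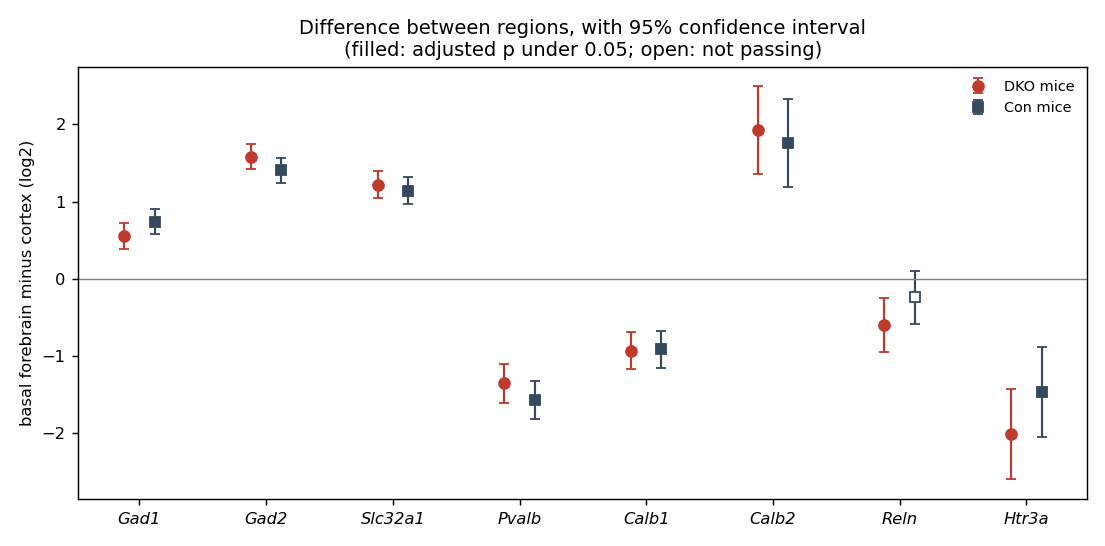
Basal forebrain minus cortex for the 8 genes (vertical axis, log2), with 95% confidence intervals from the limma fit, for DKO mice (circles) and Con mice (squares). Filled symbols passed at an adjusted p under 0.05. The Reln interval of Con mice, -0.59 to 0.10, is the only one of the 16 to include 0.

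Pvalb, the parvalbumin gene, went the other way from the GABA genes. Its levels were 3.27, 3.15 and 3.32 in DKO basal forebrain, against 4.56, 4.41 and 4.84 in DKO cortex. In Con mice they were 2.96, 2.88 and 3.13 in basal forebrain, against 4.64, 4.38 and 4.68 in cortex. Cortex was higher in every mouse. The difference was -1.36 ± 0.11 (SE, adjusted p = 3.4e-06) in DKO mice, a level 2.56-fold lower in basal forebrain, and -1.57 ± 0.11 (adjusted p = 1.3e-06), or 2.98-fold lower, in Con mice.

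Calb1, the calbindin gene, was lower in basal forebrain by nearly the same amount in both genotypes. Its levels were 3.90, 3.67 and 3.42 in DKO basal forebrain, against 4.62, 4.59 and 4.57 in DKO cortex. In Con mice they were 3.65, 3.87 and 3.92 in basal forebrain, against 4.73, 4.79 and 4.67 in cortex. No basal forebrain array reached a cortex array. The difference was -0.93 ± 0.11 (SE, adjusted p = 4.4e-05) in DKO mice and -0.92 ± 0.11 (adjusted p = 5.2e-05) in Con mice, 1.90-fold and 1.89-fold lower. Its probes 2 and 3 passed in the same direction, at -0.51 and -0.63 in DKO mice and at -0.45 and -0.59 in Con mice.

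Calb2, the calretinin gene, was much dimmer in cortex. Its levels were -0.14, -0.79 and -0.41 in DKO basal forebrain, against -2.21, -2.38 and -2.52 in DKO cortex. In Con mice they were -0.05, -1.08 and -0.14 in basal forebrain, against -2.47, -2.21 and -1.86 in cortex. Mouse 2 was the lowest of its group in basal forebrain in both genotypes. The difference was 1.92 ± 0.26 (SE, adjusted p = 0.00014), or 3.80-fold, in DKO mice and 1.75 ± 0.26 (adjusted p = 0.00028), or 3.37-fold, in Con mice. Probe 2 gave 1.91 in DKO mice and 1.97 in Con mice. Without DKO mice 1 and 3 the DKO difference was 1.58 and no longer passed (adjusted p = 0.081), and with the slide as a block the Con difference was 1.53 (adjusted p = 0.075).

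Htr3a, the gene of the 5-HT3A channel, was lower in basal forebrain in both genotypes. Its levels were -2.69, -3.31 and -3.51 in DKO basal forebrain, against -1.13, -0.89 and -1.46 in DKO cortex. In Con mice they were -2.58, -3.63 and -2.88 in basal forebrain, against -1.64, -1.58 and -1.49 in cortex. Cortex was higher in every mouse. The difference was -2.01 ± 0.27 (SE, adjusted p = 0.00012), or 4.04-fold lower, in DKO mice and -1.46 ± 0.27 (adjusted p = 0.0011), or 2.75-fold lower, in Con mice. Probe 2 gave -2.06 in DKO mice and -1.45 in Con mice.

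Reln, which encodes the secreted protein reelin, gave a different answer by different probes. By the brightest probe its levels were 2.19, 1.87 and 1.77 in DKO basal forebrain, against 2.69, 2.73 and 2.22 in DKO cortex. In Con mice they were 2.40, 1.88 and 2.18 in basal forebrain, against 2.46, 2.40 and 2.31 in cortex. The DKO regions were just apart and the Con regions overlapped. The difference was -0.60 ± 0.16 (SE, adjusted p = 0.011) in DKO mice and -0.24 ± 0.16 (adjusted p = 0.22) in Con mice. The call in DKO mice was lost without DKO basal forebrain array 3, at -0.51 (adjusted p = 0.0505), and with the mean of the gene's passing probes, at -0.08 (adjusted p = 0.84).

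Reln probe 2, 14.4 kb from the brightest, was lower in basal forebrain in both genotypes, at -0.64 ± 0.19 in DKO mice and -0.58 ± 0.19 in Con mice (adjusted p = 0.019 and 0.026). Reln probe 3 was higher in basal forebrain in both. Its levels were -5.03, -3.89 and -3.81 in DKO basal forebrain, against -5.37, -5.24 and -6.05 in DKO cortex, and -3.94, -3.97 and -5.00 in Con basal forebrain, against -5.27, -5.59 and -6.72 in Con cortex. The regions did not overlap in either genotype, but the probe was dim, and on 1 of the 12 arrays, in Con cortex, it was not well above background. Its difference was 1.31 ± 0.45 (SE, adjusted p = 0.039) in DKO mice and 1.56 ± 0.45 (adjusted p = 0.015) in Con mice. Reln probes 4 and 5 did not pass in either genotype, and probe 6 was well above background on 1 array and was not tested.

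**Figure D3:**
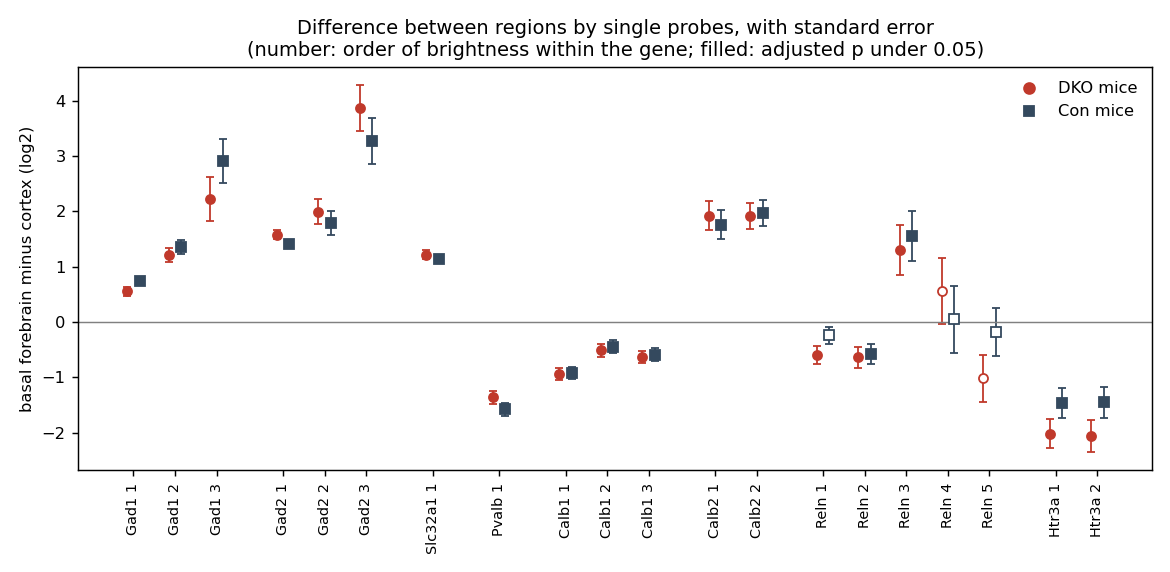
Basal forebrain minus cortex for each probe tested (vertical axis, log2, with SE), by gene and order of brightness, for DKO mice (circles) and Con mice (squares). Filled symbols passed at an adjusted p under 0.05. Probes of Gad1, Gad2, Calb1, Calb2 and Htr3a share a direction within each gene, while Reln probe 3 lies above 0 and probes 1 and 2 lie below it.

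Of the 23 probes, 20 were tested. In DKO mice 10 passed higher and 8 lower in basal forebrain, with 2 not passing, where 38.4% of all 41628 probes passed, 20.6% higher and 17.7% lower. In Con mice 10 passed higher and 7 lower, with 3 not passing, where 47.2% of all probes passed, 21% higher and 26.3% lower. The 3 probes left out were Calb2 probe 3, Gad1 probe 4 and Reln probe 6, which were not well above background on all 3 arrays of any group.

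Genes of reelin receptors, of integrin subunits and of the adaptor Dab1 did not share a direction. Of these 5 genes, 2 were higher and 2 lower in basal forebrain in each genotype. Among all genes, 18.4% were higher in each genotype, and 19.9% were lower in DKO mice and 30.1% in Con mice. The receptor Vldlr was higher by 0.28 ± 0.07 in DKO mice and by 0.45 ± 0.07 in Con mice, while the receptor Lrp8 (ApoER2) differed by -0.50 ± 0.15 and the adaptor Dab1 by -0.35 ± 0.09 in DKO mice. In Con mice Lrp8 differed by -0.83 ± 0.15 and Dab1 by -0.51 ± 0.09. The integrin subunit Itga3 was the other gene higher in basal forebrain, at 0.52 in DKO mice and 0.51 in Con mice.

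Other interneuron class markers passed in both directions. Of 20 such genes, 5 were higher and 11 lower in DKO mice, and 4 were higher and 12 lower in Con mice, with median differences of -0.33 and -0.40. Over all genes 18.4% were higher and 19.9% lower in DKO mice, and 18.4% were higher and 30.1% lower in Con mice. Lamp5, a marker of neurogliaform cells, differed by -1.61 ± 0.08 in DKO mice and by -1.51 ± 0.08 in Con mice. Vip, the peptide of one class of Htr3a cells, differed by -2.76 ± 0.26 in DKO mice and by -2.55 ± 0.26 in Con mice. Cort, the peptide cortistatin, differed by -2.82 ± 0.25 in DKO mice and by -1.88 ± 0.25 in Con mice. The potassium channel gene Kcnc2 differed by -0.68 ± 0.12 in DKO mice and by -1.08 ± 0.12 in Con mice. Higher in basal forebrain were Elfn1, at 1.16 ± 0.08 in DKO mice and 0.96 ± 0.08 in Con mice, and Chodl, at 1.67 ± 0.15 in DKO mice and 1.48 ± 0.15 in Con mice.

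Transcription factors of the interneuron lineage passed in both directions. Of 18, 7 were higher and 3 lower in basal forebrain in DKO mice, and likewise 7 and 3 in Con mice. The median differences were 0.04 and 0.14. Of all genes tested, 18.4% were higher in each genotype, and 19.9% were lower in DKO mice and 30.1% in Con mice. Satb1, which acts in interneurons born in the medial ganglionic eminence and is also present in cortical pyramidal neurons, differed by -1.76 ± 0.07 in DKO mice and by -1.72 ± 0.07 in Con mice. Nkx2-1, which specifies that eminence and stays on in many basal forebrain neurons, was higher by 4.10 ± 0.32 in DKO mice and by 3.13 ± 0.32 in Con mice. Gsx2 was higher by 2.58 ± 0.19 in DKO mice and by 2.06 ± 0.19 in Con mice, Dlx5 by 1.64 ± 0.17 in DKO mice and 1.14 ± 0.17 in Con mice, and Dlx6 by 1.51 ± 0.16 in DKO mice and 1.73 ± 0.16 in Con mice. The same shares of all genes stand beside the 10 genes of the perineuronal net, the matrix coat around many parvalbumin cells. Of these 10, 3 were higher and 4 lower in DKO mice, and 4 were higher and 4 lower in Con mice. Among them the link protein Hapln4 differed by -1.08 ± 0.15 in DKO mice and by -1.06 ± 0.15 in Con mice, and the hyaluronan synthase Has1 was higher by 0.90 ± 0.14 in DKO mice and by 0.76 ± 0.14 in Con mice.

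Some basal forebrain pieces stood apart in markers of neighbouring tissue. Con mouse 2 was lowest of the Con basal forebrain arrays for Calb2, Htr3a, Reln and Pvalb. It was highest for Gad2 and Slc32a1, and between the others for Gad1 and Calb1. Its basal forebrain array had a mean level of -0.93 over 6 olfactory bulb genes, against 0.79 and 0.91 in Con mice 1 and 3. The same array had -1.84 over the list of septum, preoptic area and hypothalamus, against -0.31 and -0.99, and 4.32 over the medium spiny neuron genes, against 3.67 and 4.04. On the DKO basal forebrain arrays the olfactory bulb list stood at -0.66, -0.98 and -0.70, so Con mice 1 and 3 were the ones apart. In basal forebrain all 6 olfactory bulb genes were lower in DKO mice, at a median of -1.04, and 0 passed. Over the list of septum, preoptic area and hypothalamus DKO mouse 2 stood at -1.15, against -0.07 and -0.39 in DKO mice 1 and 3. Choroid plexus genes had a higher mean level in cortex. The mean over 8 such genes ran over 1.1 to 1.49 on DKO cortex arrays and over 0.28 to 1.34 on Con cortex arrays. On basal forebrain arrays it ran over -2.66 to -2.29 in DKO and over -2.73 to -1.50 in Con mice. Of the choroid plexus genes, 7 were lower and 1 higher in basal forebrain in DKO mice, and 5 lower and 1 higher in Con mice. Among all genes, 18.4% were higher in each genotype, and 19.9% were lower in DKO mice and 30.1% in Con mice. The part of these tissues in the values of the 8 genes was not tested.

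The comparison of genotypes asks whether the loss of presenilins in cholinergic neurons, with PS2 absent throughout, came with a difference in these genes. In basal forebrain none of the 8 genes passed (0 of 8, limma), where 0.0309% of 25911 genes passed. At an unadjusted p under 0.05 there was 1, Pvalb, with 4.42% of all genes. In Pvalb the DKO levels of 3.27, 3.15 and 3.32 lay above the Con levels of 2.96, 2.88 and 3.13, a difference of 0.25 ± 0.09 (SE, limma adjusted p = 0.97) with a 95% confidence interval of 0.05 to 0.46. Over all genes, 9.96% had DKO and Con basal forebrain arrays that did not overlap, and Pvalb was the 1 of the 8. The groups of the other 7 genes overlapped. Without DKO mice 1 and 3 the Pvalb difference was 0.16.

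The intervals show how large a difference could have been missed in basal forebrain by the brightest probes. For the GABA genes they were narrow: -0.21 to 0.13 for Gad1, -0.13 to 0.25 for Gad2 and -0.16 to 0.24 for Slc32a1. The differences were -0.04, 0.06 and 0.04. Gad1 probes 2 and 3 gave -0.09 ± 0.10 and -0.62 ± 0.36 (SE), and Gad2 probes 2 and 3 gave -0.19 ± 0.15 and 0.07 ± 0.51. None of these passed, and the narrow intervals hold for the brightest probes only. For Calb1 the difference was -0.15 (interval -0.48 to 0.17) and for Reln -0.21 (-0.58 to 0.17). Reln probes 2, 3, 4 and 5 gave 0.09 ± 0.23, 0.06 ± 0.43, 1.24 ± 0.64 and -0.61 ± 0.39 (SE), none passing. For the dimmer genes the intervals were wide, -0.73 to 0.69 for Calb2 and -0.92 to 0.63 for Htr3a, around differences of -0.02 and -0.14. Without DKO mice 1 and 3 the differences were -0.06 for Gad1, 0.05 for Gad2, -0.03 for Slc32a1, -0.15 for Calb1, -0.28 for Reln, -0.37 for Calb2 and -0.28 for Htr3a, and none passed. Over the 8 genes the median difference was -0.03, beside 0.00 over all genes.

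In cortex 0 of 8 genes passed (limma), where 0.0117% of 25627 genes passed, and 2 had an unadjusted p under 0.05, with 18.9% of all genes. Htr3a had levels of -1.13, -0.89 and -1.46 in DKO cortex, against -1.64, -1.58 and -1.49 in Con cortex, a difference of 0.41 ± 0.15 (SE, adjusted p = 0.26). Calb1 had levels of 4.62, 4.59 and 4.57 in DKO cortex, against 4.73, 4.79 and 4.67 in Con cortex, a difference of -0.14 ± 0.05 (adjusted p = 0.26). In both genes the groups did not overlap, which held for 22.4% of all genes in cortex. The intervals of the other 6 genes included 0: -0.03 to 0.33 for Gad1, -0.28 to 0.05 for Gad2, -0.22 to 0.15 for Slc32a1, -0.24 to 0.32 for Pvalb, -0.60 to 0.22 for Calb2 and -0.16 to 0.46 for Reln. These intervals are those of the brightest probes. Gad2 probes 2 and 3 gave -0.40 ± 0.25 and -0.51 ± 0.23 (SE), and Gad1 probes 2 and 3 gave 0.05 ± 0.14 and 0.07 ± 0.39, none passing. The median of the 8 genes was -0.0013, beside -0.05 over all genes.

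The cortex values depended on which DKO arrays were kept. DKO cortex arrays 1 and 2 were on slide 1, and DKO cortex array 3 shared slide 2 with the 3 Con arrays. Without DKO cortex array 3, which leaves the genotypes on separate slides, Gad1, Reln and Htr3a passed at 0.22, 0.31 and 0.56 (adjusted p = 0.020, 0.0073 and 0.0070), and so did 9722 of 25904 genes. Without DKO mice 1 and 3 the differences were 0.30 for Gad1, 0.34 for Reln, 0.68 for Htr3a and -0.02 for Gad2. The same fit gave -0.11 for Slc32a1, -0.15 for Pvalb, -0.14 for Calb1 and -0.20 for Calb2. It sets DKO cortex array 2, on slide 1, against the 3 Con arrays on slide 2. Genotype and slide cannot be told apart in it. On slide 2, where 1 DKO array stands beside 3 Con arrays, the DKO minus Con differences were 0.01 for Gad1, -0.11 for Gad2, 0.13 for Slc32a1, 0.27 for Pvalb, -0.16 for Calb1, -0.34 for Calb2, -0.18 for Reln and 0.11 for Htr3a. Slide 1 holds no Con cortex array, so a fit with the slide as a block rests on the same 4 arrays and gives the same differences. The slide and DKO mouse 3 cannot be told apart in cortex.

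**Figure D4:**
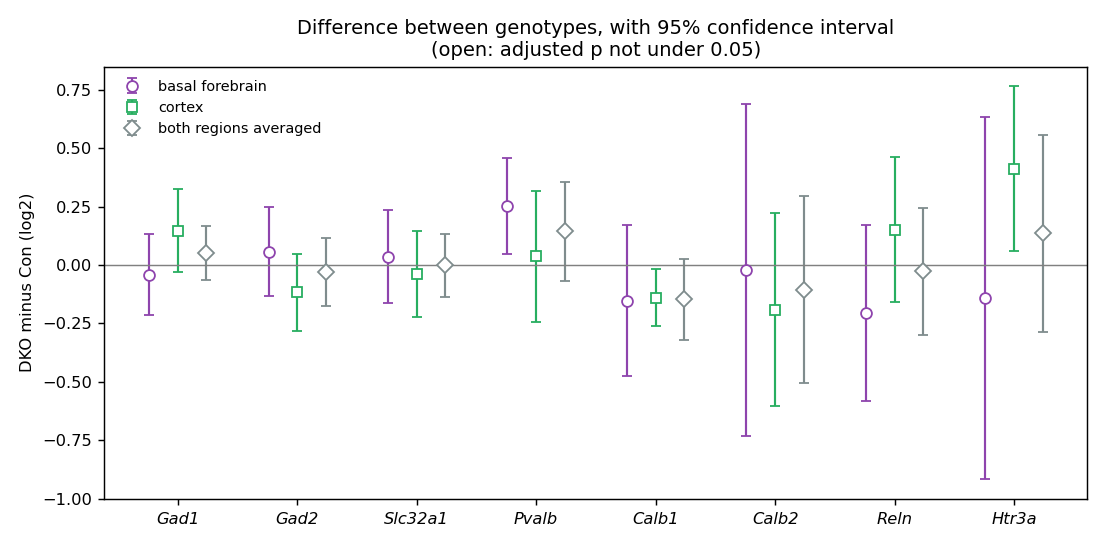
DKO minus Con for the 8 genes (vertical axis, log2), with 95% confidence intervals from the limma fits, in basal forebrain (circles), cortex (squares) and both regions averaged per mouse (diamonds). No value passed at an adjusted p under 0.05, and the intervals of Calb2 and Htr3a in basal forebrain are the widest.

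Averaged over both regions of a mouse, 0 of 8 genes passed (limma) where 0.157% of 26764 genes did. At an unadjusted p under 0.05 there were 0 of 8, with 10.8% of all genes. No gene separated DKO from Con mice without overlap, which 16.7% of all genes did. The differences ran from -0.15 for Calb1 (interval -0.32 to 0.03) to 0.15 for Pvalb (-0.07 to 0.36). Without DKO mice 1 and 3 Pvalb stood at 0.0036, Calb2 at -0.28, Gad1 at 0.12 and Htr3a at 0.20, and none of the 8 genes passed. Gad2 differed by -0.03 (-0.17 to 0.11) and Slc32a1 by -0.0014 (-0.14 to 0.13). By single probes the result was the same, with 0 of 20 probes passing in basal forebrain, in cortex or over both regions. Of all probes 0.0321%, 0.0102% and 0.118% passed, in that order. At an unadjusted p under 0.05 there were 1, 2 and 0 of the 20 probes. By the brightest probe of each gene, 4.42%, 18.9% and 10.8% of all genes had such a p.

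The difference between genotypes was also compared between the regions, by subtracting the DKO minus Con value of cortex from that of basal forebrain. None of the 8 genes passed this interaction test (0 of 8, limma), nor did any of the 26764 genes (0%). An unadjusted p under 0.05 was reached by 0 of the 8, and by 8.40% of all genes. The values ran from -0.55 ± 0.38 (SE) for Htr3a to 0.22 ± 0.16 for Pvalb. For Reln, which passed between regions in DKO mice and not in Con mice, the interaction was -0.36 ± 0.22 (adjusted p = 0.59, interval -0.85 to 0.13), so the region difference was not shown to differ between genotypes. With the slide as a block in the fit of 12 arrays, the Reln region difference was -0.76 in DKO mice and -0.73 in Con mice (adjusted p = 0.0028 and 0.080), and the interaction was -0.03. The slide term of that fit comes only from DKO cortex array 3, at 2.22, against DKO cortex arrays 1 and 2, at 2.69 and 2.73. It carries DKO mouse 3 into the Con value, so this fit cannot decide whether the slide made the genotypes differ. With the mouse as a block the Reln region difference was -0.60 ± 0.11 (adjusted p = 0.0038) in DKO mice and -0.24 ± 0.11 (adjusted p = 0.10) in Con mice.

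Related genes gave no calls between genotypes either: 0 of the 8 genes of GABA clearance, supply and gephyrin, 0 of 20 other class markers, 0 of 18 transcription factors, 0 of 10 perineuronal net genes and 0 of 5 reelin receptor and effector genes passed in basal forebrain, in cortex or over both regions. Of these 61 genes together, 4 had an unadjusted p under 0.05 in basal forebrain, 14 in cortex and 10 over both regions, beside 4.42%, 18.9% and 10.8% of all genes. In basal forebrain the smallest p belonged to Glul (0.15 ± 0.09) and Gphn (-0.10 ± 0.06), to Elfn1 (0.20 ± 0.08) and Cort (-0.79 ± 0.33), to Nkx2-1 (0.40 ± 0.15) and Sp8 (-1.66 ± 0.71), and to Vldlr (-0.10 ± 0.06) and Itga3 (0.20 ± 0.13), with an adjusted p of 0.97 each. In cortex they belonged to Slc38a1 (0.15 ± 0.05) and Slc6a11 (-0.35 ± 0.13), to Sst (-0.16 ± 0.05) and Kcnc2 (-0.27 ± 0.09), to Prox1 (0.28 ± 0.09) and Dlx5 (-0.48 ± 0.21), and to Lrp8 (-0.43 ± 0.16) and Itgb1 (-0.32 ± 0.13). Sp8, named above for basal forebrain, ran from -2.26 to 0.52 on the Con arrays of that region. In the perineuronal net list Hapln1 and Ncan had the smallest p in both regions. Hapln1 differed by -0.21 ± 0.09 in basal forebrain and by -0.51 ± 0.16 in cortex, and Ncan by -0.27 ± 0.09 in basal forebrain and by -0.29 ± 0.11 in cortex. Over both regions they stood at -0.36 ± 0.09 and -0.28 ± 0.08 (adjusted p = 0.37 and 0.40).

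Blood-cell RNA did differ between the same samples. Over both regions 6 of 6 red-cell genes tested were higher in DKO mice, and 7 of 11 leukocyte genes, where 0.157% of all genes passed in either direction. The mean level over the 7 red-cell genes ran over 0.71 to 2.32 on DKO and over -1.0 to -0.81 on Con basal forebrain arrays, and over 0.76 to 1.80 on DKO and over -0.90 to -0.56 on Con cortex arrays. Red-cell genes that passed included Slc4a1, at 2.38. Their part in the values of the 8 genes was not tested.

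For Gad2 and Slc32a1 both basal forebrain groups were above both cortex groups, and the genotypes overlapped within each region. Gad1 and Calb2 had that pattern too. For Pvalb the order from the highest was DKO cortex, Con cortex, DKO basal forebrain and Con basal forebrain, with the cortex groups overlapping. For Calb1 it was Con cortex, DKO cortex, Con basal forebrain and DKO basal forebrain, with the basal forebrain groups overlapping, and for Htr3a it was DKO cortex, Con cortex, Con basal forebrain and DKO basal forebrain, likewise. For Reln each group overlapped the next in the order DKO cortex, Con cortex, Con basal forebrain and DKO basal forebrain. The spread between mice also differed by gene: the median SD over the 4 groups was 0.06 for Gad1 and 0.07 for Slc32a1, against 0.32 for Calb2 and 0.36 for Htr3a.

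The genes whose pattern over the 12 arrays was nearest to each of the 8 were found among 15704 genes by the root mean square difference of centred levels. Nearest to Gad1 were Pptc7 (0.05) and Zmym3 (0.06), nearest to Gad2 were Dock11 (0.11) and Ap1s2 (0.12), and nearest to Slc32a1 were Xrcc3 (0.07) and Postn (0.08). Nearest to Pvalb were Extl1 (0.13) and Cobl (0.14), and nearest to Calb1 were Mmd (0.09) and Hivep2 (0.09). Nearest to Calb2 were Gpx3 (0.19) and Tmie (0.22), nearest to Reln were Taf9 (0.10) and Rab3d (0.10), and nearest to Htr3a were Kcnk4 and Ccdc3 (0.19 each). None of these pairs joined 2 of the 8 genes, since those were left out of the search. The 12 points share 2 regions and 6 mice, and are not independent.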

How the data were processed

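RNA of basal forebrain and cortex from 6 mice was hybridised to 12 Agilent SurePrint G3 mouse arrays in 1 colour. Per the file headers, Agilent Feature Extraction 10.7.1.1 made the deposited intensity of each spot, which is spatially and multiplicatively detrended and holds substitute values for dim spots, but is not scaled between arrays. The authors' deposited normalized log2 values served as an alternative. The sources used here do not say how these were made. Once sorted, they were the same on all 12 arrays, with a largest log2 difference of 0. The quantile normalization used below as another alternative also gives all arrays the same sorted values, so these 2 alternatives may be alike. The 8 genes and all lists were chosen with earlier results of these data known.

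From each log2 intensity the array's 75th percentile was subtracted. Unflagged spots of a probe were averaged, and 37 probes with no such spot on an array were left out. The probe with the highest mean level stood for its gene, which was tested if a group had that probe well above background on its 3 arrays. Between 68.9% and 75.0% of probes were well above background on an array, and 0 spots were saturated. The number of arrays limits the precision. Tests used limma 3.58.1 in R 4.3.3 (lmFit, eBayes with trend), with Benjamini-Hochberg adjustment over all genes of a comparison and a threshold of 0.05. Genotypes were compared within a region on the 6 arrays of that region. The average over both regions used 1 value per mouse, and the region tests and the interaction used all 12 arrays in 4 groups. The steps were tested on simulated data. Of each list, the text names members that passed, up to 5 by smallest p, or else the 2 of smallest p. A few genes picked this way are not reported here.

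The titles name the mouse, so the regions are paired by mouse. The correlation of same-mouse deviations ran over -0.09 to 0.15 in DKO mice and over 0.21 to 0.39 in Con mice.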

Additional observations from a re-analysis of the deposited data

How the results depend on the processing

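The numbers of the 8 genes that passed between genotypes were recomputed with the authors' normalized values, normexp background correction, quantile normalization, no filter, a stricter filter, the mean of a gene's probes, no variance trend, and each array or mouse left out. In basal forebrain, over both regions and in the interaction the number stayed at 0 of 8. In cortex it ran over 0 to 3 when single arrays were left out, and reached 3 without DKO cortex array 3. That fit and the one without DKO mice 1 and 3 leave the cortex genotypes on separate slides. The latter also leaves 1 DKO mouse assumed to vary like the Con mice, so its number is not given. The replicate block, which for genotypes pairs mice that share only a number, changed no number: 0 of 8 in each genotype comparison and in the interaction, 8 of 8 between regions in DKO mice and 7 of 8 in Con mice.

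Between regions in DKO mice, Reln was reversed with its probe 3, at 1.31, and with its probe 4, at 0.56 (adjusted p = 0.50). Its probe 5 gave -1.02 (adjusted p = 0.083). The cause was not tested. Under all alternatives the number between regions was 7 or 8 of 8 in DKO mice and 6 or 7 of 8 in Con mice. With the slide as a block, 8 of 8 passed between regions in DKO mice and 6 of 8 in Con mice, and on slide 1 alone 8 of 8 passed in DKO mice. The Con number with the slide as a block rests on a slide term set by the DKO cortex arrays alone. Of 984 values of single genes and probes, 969 kept their side of the threshold and, where they passed it, their direction. Htr3a and Calb2, the dimmest of the 8 genes, had the largest median SD between mice, which limits what their comparisons can show. The spread did not simply follow dimness. Calb2 was brighter in basal forebrain, with SDs of 0.33 in DKO and 0.57 in Con mice. In cortex its SDs were 0.15 in DKO and 0.31 in Con mice.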
